A study of Mus musculus with 12 samples.

Results

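Wide H3K9Ac peaks were the stretches of at least 1000 bp over which histone H3 acetylated at lysine 9 was called as a single peak in replicate 1 and met at least 1 peak of replicate 2. The rule kept 420 of the 10117 H3K9Ac replicate 1 peaks on chromosomes 1 to 19 and X. A further 3947 replicate 1 peaks also met replicate 2 but were under 1000 bp; these narrower shared peaks served as the comparison. The data came from small pre-B cells, sorted from mouse bone marrow as lineage-negative, B220-positive, CD43-negative, IgM-negative cells of low forward scatter, on a C57BL/6 background. Chromatin was precipitated with antibodies to H3K9Ac, to BRWD1 and to histone H3 carrying both phosphoserine 10 and acetyl-lysine 14 (H3S10pK14Ac), with 2 replicates each. The labels of these 6 libraries give no mutant genotype, age or sex, and do not say whether animals were pooled or whether replicates came from separate animals. Each library has its own list of peaks, with a position and a score. The lists hold no read counts, so read depth is unknown.

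Acetylation of H3 at lysine 9 is laid down by histone acetyltransferases on nucleosomes beside active promoters and enhancers, where it opens chromatin and is read by bromodomain proteins. In most places it forms short islands, whereas long acetylated stretches are known from highly transcribed genes and from clustered enhancers of genes that define a cell type. BRWD1 has bromodomains and WD repeats. Small pre-B cells have stopped dividing and rearrange their immunoglobulin light chain genes, first at the kappa locus, Igk.

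The wide peaks were few but took up a sizeable part of the H3K9Ac list. They were 4.15% of the replicate 1 peaks and 12.8% of the bases these peaks cover, 598 kb in all. Their median width was 1224 bp, with quartiles at 1103 and 1537 bp, against a median of 447 bp for the narrower shared peaks. Just above the threshold lay 51.2% of them: 215 measured 1000 to under 1250 bp, 93 measured 1250 to under 1500 bp, 65 measured 1500 to under 2000 bp, and 47 reached 2000 bp or more. Only 3 exceeded 4000 bp. Around the threshold there was no break, since 70 shared peaks measured 950 to under 1000 bp and 48 measured 1000 to under 1050 bp. Just outside were 4 peaks of 998 bp, scored 8.67 to 61.2, and just inside was 1 of 1003 bp at chr4:62068592-62069594, scored 20.6. The regions were chosen by the width of the replicate 1 peak and by its overlap with replicate 2, so these values describe the choice and carry no test.

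Wide peaks also scored high. The score is the significance that the authors' peak calling gave each peak, on a −log10 scale; here it ranks peaks inside their own list and is not compared across lists. The median score was 16.4 for wide peaks and 8.57 for narrower shared peaks in replicate 1, which put them at the 91.4th and 67.5th percentile of the list. Low scores occurred too, down to 5.13, and 71 wide peaks scored under 10. The replicate 2 scores had the same order: the best replicate 2 peak on a wide peak had a median score of 13.0 (91.7th percentile), and that on a narrower shared peak 8.49 (78.7th percentile). The best was taken from a mean of 1.65 replicate 2 peaks per wide and 1.07 per narrower peak, which favours wide ones. Peak by peak, 48.2% of replicate 2 peaks on wide and 34.0% on narrower shared peaks scored 10 or more. Of the 100 highest-scored replicate 2 peaks, 30 lay on wide peaks and 66 on narrower shared peaks. Among all 16453 replicate 2 peaks, 691 lay on wide peaks. Across the 420 wide peaks, width and score had a Spearman rho of 0.33, and the scores of both replicates 0.51; these peaks share their libraries and are not independent, so no p-value is given.

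**Figure D1:**
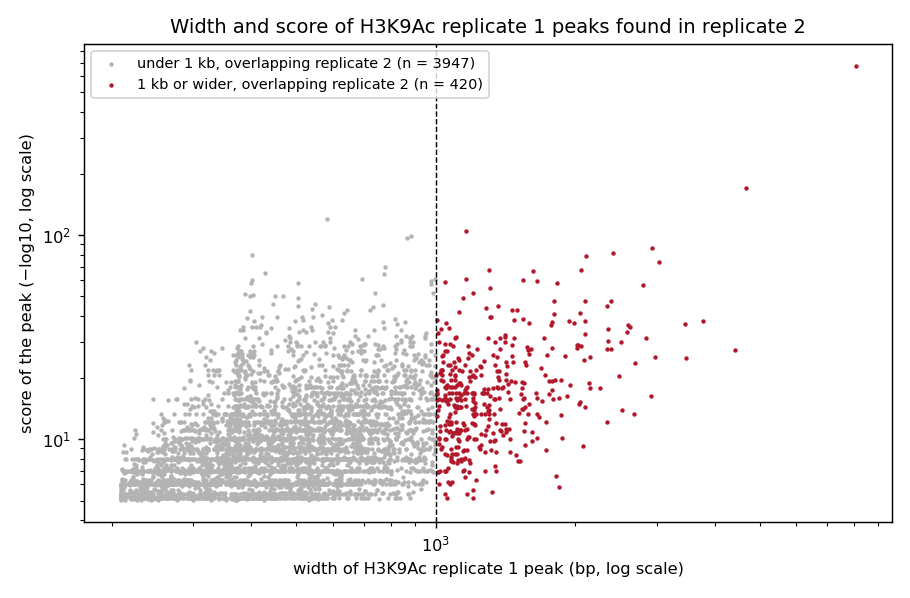
Score (−log10, log axis) against width (bp, log axis) of H3K9Ac replicate 1 peaks that overlapped replicate 2, each point a peak; the dashed line marks 1000 bp. The 420 wide peaks (red) run on from the 3947 narrower ones (grey) without a break, and 2 of them, of 8054 and 4669 bp, stand apart at the upper right.

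The widest regions were led by immunoglobulin loci. The widest peak, 8054 bp at chr6:70668924-70676977 (mm9, as for all positions here), lay in the window of 67 to 71 Mb that holds Igk, and had the highest score of replicate 1, 676. The next, 4669 bp at chr12:114663347-114668015, lay in the 4 Mb window set around the heavy chain locus, Igh, and had the second highest score, 171. These were also the only wide peaks with a peak of all 6 lists (0.476%), which 28 narrower shared peaks had too (0.709%). The third, chr15:72983205-72987627, measured 4423 bp but ranked only 231 by score. Igk thus stood apart in both width and score, while the chr15 peak was nearly as long as that at Igh at a score of 27.4.

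The other 7 of the 10 widest ranged from 2920 to 3767 bp. At chr2:58009668-58013434 (3767 bp) replicate 2 covered 92.7% with 2 peaks, and a BRWD1 replicate 2 peak of score 8.60 lay inside. The peak at chr18:65960327-65963789 (3463 bp) met 4 replicate 2 peaks and held 2 BRWD1 replicate 2 peaks, scored 6.97 and 5.16. Next came chr5:66254015-66257471 (3457 bp), with 3 replicate 2 peaks, 1 BRWD1 replicate 1 peak of score 5.41 and 2 BRWD1 replicate 2 peaks scored up to 6.12. None of these 3 held an H3S10pK14Ac peak.

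At chr13:52678898-52681925 (3028 bp), 5 replicate 2 peaks and 2 BRWD1 replicate 1 peaks (scores 5.39 and 5.36) were called, and no BRWD1 replicate 2 peak. The peak at chr3:68494835-68497800 (2966 bp) held a single H3S10pK14Ac replicate 2 peak of score 5.56 and no BRWD1. At chr6:7795315-7798237 (2923 bp, score 86.8, rank 7) the replicate 2 peak covered 51.8%, and BRWD1 peaks of both replicates, scored at most 5.76, lay side by side without overlapping. The tenth, chr1:179373171-179376090 (2920 bp), was 45.2% covered by replicate 2 and held no peak of the other antibodies. Outside the immunoglobulin loci, then, the 10 widest regions held 14 BRWD1 and H3S10pK14Ac peaks, scored 5.10 to 8.60, of which 7 were at or above the median score of their list. No annotation of mm9 was used here, so regions are named by position and not by gene.

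**Figure D2:**
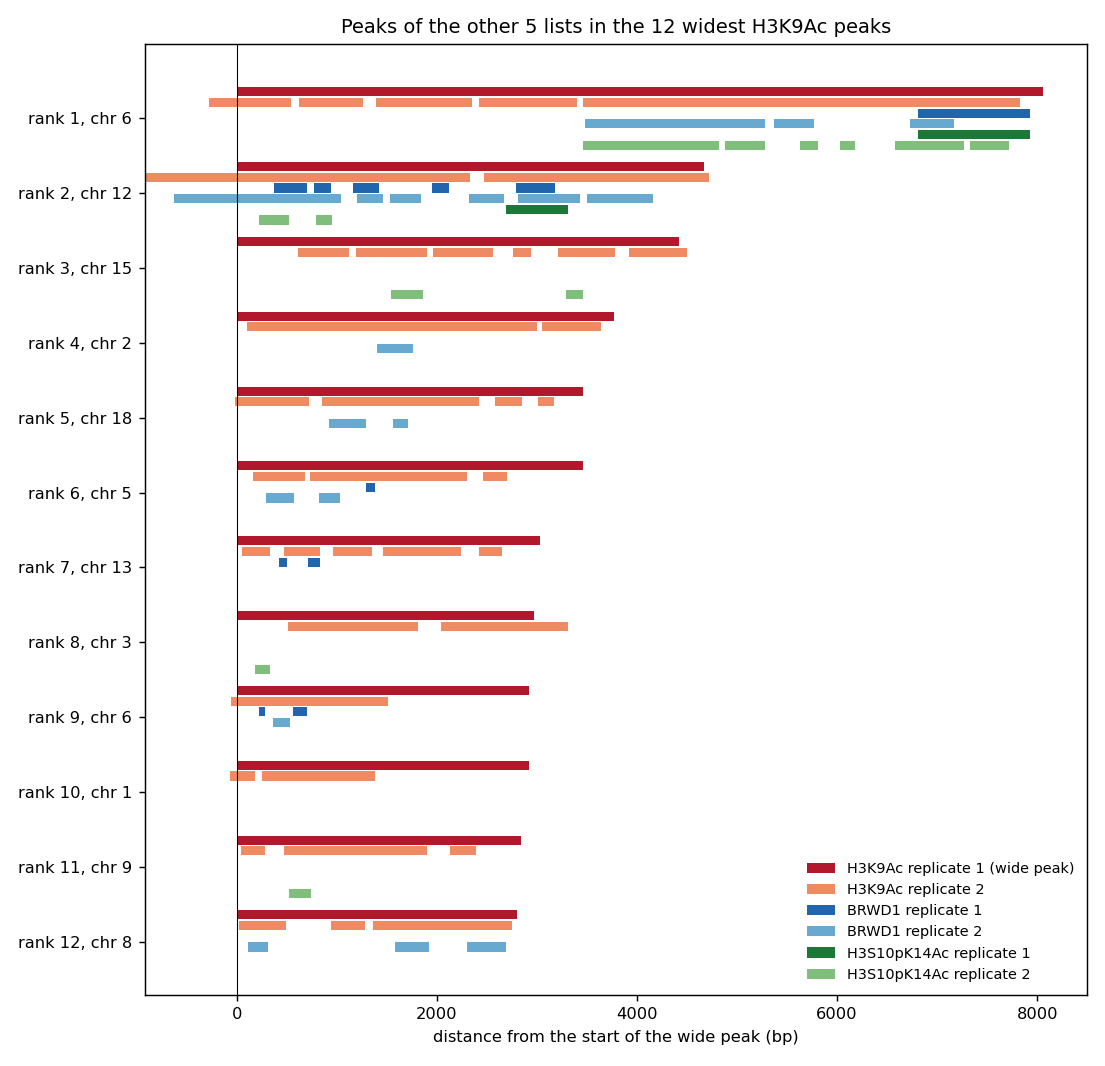
Peaks of all 6 lists in the 12 widest H3K9Ac peaks, drawn to scale as distance in bp from the start of the wide peak (red bar), 1 row per list. H3K9Ac replicate 2 (orange) breaks most of these regions into 2 to 6 pieces, and BRWD1 (blue) and H3S10pK14Ac (green) are most frequent in ranks 1 and 2, with at most a few stretches in the others.

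Inside the Igk peak the antibodies lay in the part of higher coordinates. Replicate 2 of H3K9Ac covered 93.1% of it with 5 peaks: 4 short ones of 642 to 983 bp scored 14.4 to 18.6, then 1 of 4370 bp scored 75.1. All 3 BRWD1 replicate 2 peaks (scores 71.97, 7.46 and 48.3) and all 6 H3S10pK14Ac replicate 2 peaks (scores 7.40 to 70.6) lay within the bounds of that last piece, which begins 3455 bp into the wide peak. The BRWD1 and H3S10pK14Ac peaks of replicate 1, scored 215 and 85.8, began 6811 and 6813 bp into it. The lower 3455 bp therefore carried H3K9Ac in both replicates, apart from short gaps in replicate 2, without a BRWD1 or H3S10pK14Ac peak in any list.

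The Igh peak was filled differently. Replicate 2 covered 96.8% of it with 2 peaks of 3249 and 2247 bp, scored 106.6 and 74.9. BRWD1 was called 5 times in replicate 1 (scores 5.10 to 11.1) and 6 times in replicate 2 (5.70 to 23.3), spread over most of the length. H3S10pK14Ac had 1 replicate 1 peak (score 7.70) and 2 replicate 2 peaks (7.92 and 6.91), and these did not lie in the same place. With 11 BRWD1 peaks over both lists it held the most of any wide peak, and the next, Igk and a 1164 bp peak on chr17 described further on, held 4 each.

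Wide peaks were counted in windows of whole megabases set around 20 loci. Of 12 windows around pre-B loci (18 Mb), 9 held a wide peak, 17 in all. Of 8 windows around loci of T cells, red cells and myeloid cells (10 Mb), 2 held a wide peak, 1 each at the Cd3 genes and at Hbb, the beta globin locus. This was 0.944 per Mb in the pre-B windows and 0.200 per Mb in the others, against 0.163 per Mb over the span of all chromosomes. Wide peaks made up 17 of 87 shared peaks in the pre-B windows (19.5%) and 2 of 41 in the others (4.88%), against 9.62% overall. The Igl window, which holds the lambda light chain, had 4 (widest 1354 bp), and its 3 narrower shared peaks were fewer than these. Ikzf3, which encodes the B-lineage factor Aiolos, had 3 in its window, and Pax5, the B-cell commitment factor, had 2. The windows of Ebf1, Ikzf1, Cd79a and Rag1/Rag2 had 1 each, of 1780, 1848, 1687 and 1197 bp. No wide peak lay in the windows of Cd79b, Vpreb1/Igll1 or Foxo1, which held 15, 1 and 5 narrower shared peaks. Besides its widest peak the Igk window had 2 more, at chr6:70795031-70796192 (1162 bp) and chr6:70821421-70822956 (1536 bp), the latter with a BRWD1 replicate 2 peak. Each window also contains other genes, and the difference between the groups of windows was not tested.

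Replicate 2 broke many wide peaks into pieces. A single replicate 2 peak overlapped 217 of them, 2 peaks overlapped 149, 3 peaks 43, and 4 to 6 peaks 11. Thus 203 (48.3%, 95% Wilson interval 43.6 to 53.1) met 2 or more replicate 2 peaks, where 11.0% of all shared replicate 1 peaks and 7.02% of the narrower ones did. Longer peaks have more room for pieces: the median width rose from 1165 bp with 1 piece to 1327 bp with 2 and 1540 bp with 3. The most fragmented were the chr15 region with 6 pieces, scored 5.90 to 24.2, and Igk, the chr13 region and chr9:21430048-21432305 with 5 each. Intervals of shares cover counting error of peaks only.

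The pieces were short and lay close together. The 691 replicate 2 peaks on wide peaks had a median width of 415 bp, against 306 bp for those on narrower shared peaks and 188 bp for all others. Only 74 reached 1000 bp, so 346 of the 420 regions had no replicate 2 peak that would itself count as wide. Seen from the other side, 108 replicate 2 peaks were 1000 bp or wider, 106 met a replicate 1 peak, and 74 of these 106 (69.8%) lay on a wide replicate 1 peak. The 273 gaps between neighbouring pieces had a median of 141 bp, with quartiles at 92 and 219 bp, and 200 of them were under 200 bp. In both H3K9Ac lists neighbouring peaks were never closer than 50 bp, while the shortest peak was 209 bp in replicate 1 and 146 bp in replicate 2, and the median over the whole list 375 and 208 bp. When H3K9Ac peaks at most 200 bp apart were joined in each list, 621 regions counted as wide, and 24.2% of these were split.

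Most of what replicate 2 lacked lay outside its outermost pieces and not in these gaps. In the 217 regions with 1 piece, all uncovered bases lie there by definition. Replicate 2 covered 56.9% of the bases of wide peaks, close to the 60.0% for narrower shared peaks. Of the 258 kb not covered, gaps between pieces made up 51.7 kb, and the rest lay outside the outermost pieces. Along the peak, mean coverage was 64.4% in the fifth of 10 equal parts and 42.2% and 38.6% in the first and last. Coverage differed widely between regions: 24 were covered by 90% or more, 236 by at least 50%, and 4 by less than 10%. Regions with several pieces were covered better (65.3% of their bases) than those with 1 piece (46.7%). In the reverse direction replicate 1 covered 86.7% of the bases of the 106 wide replicate 2 peaks and split 24 of them (22.6%). The part of the shorter peaks throughout the replicate 2 list in these differences was not tested.

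**Figure D3:**
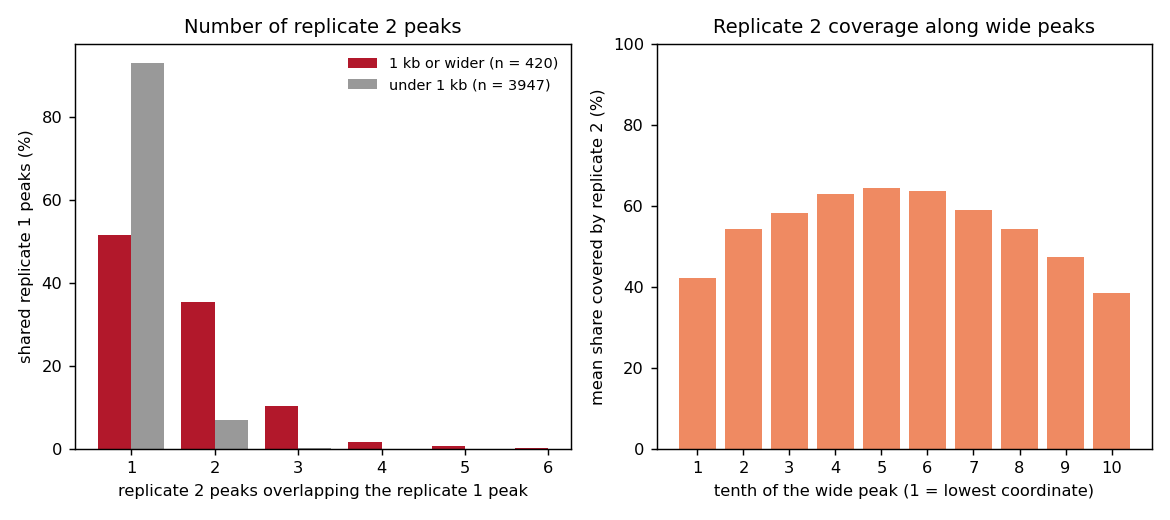
Left, share (%) of wide (red, n = 420) and narrower (grey, n = 3947) shared H3K9Ac replicate 1 peaks by the number of replicate 2 peaks on them; right, mean share (%) of each of 10 equal parts of the wide peaks that replicate 2 covered. About 48.3% of wide and 7.02% of narrower peaks met 2 or more, and coverage falls from 64.4% near the middle to 42.2% and 38.6% at the ends.

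Wide peaks were mostly solitary, with a minority in close pairs. The median distance from a wide peak to the nearest other one was 824 kb. Another wide peak lay within 10 kb of 49 (11.7%), where 6.96% of all shared replicate 1 peaks, and 6.46% of the narrower ones, had a wide peak this near. Within 1 kb the shares were 4.76% and 3.72% for wide and narrower peaks, and within 100 kb 23.8% and 16.8%. H3K9Ac peaks of any width were common next to wide ones: 49.8% had another replicate 1 peak within 1 kb and 93.1% within 100 kb, against 43.5% and 85.7% of narrower shared peaks. These distances come from a single list and were not tested.

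The 49 neighbours formed 23 groups, 20 pairs and 3 triplets, with gaps of at most 10 kb. The triplet at chr15:86003099-86015616 held peaks of 1106 to 2339 bp with gaps of 237 and 7047 bp. Another at chr9:21421083-21432305 held peaks of 1218 to 2258 bp and 7 replicate 2 peaks, and the third, chr8:129355858-129372834, was looser, with gaps of 4607 and 8865 bp. These triplets carried 1, 1 and 0 BRWD1 peaks, all of replicate 2. In 7 of the 20 pairs the gap was only 71 to 161 bp. The tightest was chr10:98921221-98924360, where peaks of 1416 and 1653 bp were 71 bp apart; others were chr8:108575045-108578170 (74 bp), chr10:96080408-96083306 (76 bp) and chr7:51785199-51788360 (91 bp). The pair with the largest summed width, chr8:86262148-86273583, held 6 BRWD1 replicate 2 peaks and no BRWD1 replicate 1 peak. The next by summed width, chrX:45492061-45500860, held peaks of 1202 and 2683 bp 4915 bp apart, with no BRWD1 or H3S10pK14Ac peak.

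On the scale of 1 Mb the wide peaks were also thinly spread. They occupied 322 windows, of which 66 held 2 or more and 6 held 4 or more. The fullest were chr10 from 59 to 60 Mb and chr7 from 80 to 81 Mb, with 5 each beside 6 and 5 narrower shared peaks. The Igl window was among the 6. By chromosome, wide peaks made up 6.38% of shared peaks on chromosomes 14 and 17 and 14.03% on chromosome 10, and the other chromosomes lay between.

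BRWD1 lay inside a minority of wide peaks, and the replicates differed. Of the 420, 22 overlapped a BRWD1 replicate 1 peak (5.24%, 3.48 to 7.80) and 83 a replicate 2 peak (19.8%, 16.2 to 23.8). Among all H3K9Ac replicate 1 peaks the shares were 6.31% and 8.36%, and among narrower shared peaks 6.36% and 12.4%. Replicate 1 was thus near the background of the list, while replicate 2 was above it. H3S10pK14Ac replicate 2 overlapped 35 wide peaks (8.33%, 6.05 to 11.4) against 3.94% of all and 7.35% of narrower shared peaks. Its replicate 1 list, by far the shortest of the 6, overlapped 2 wide peaks, Igk and Igh (0.476%), against 0.366% of all. Neither BRWD1 nor H3S10pK14Ac was called in any list at 304 wide peaks (72.4%), against 3303 narrower shared peaks (83.7%).

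A longer region meets more peaks by length alone, so the peaks were also counted per length, by their midpoints. Wide peaks held 31 BRWD1 replicate 1 midpoints and 100 of replicate 2, or 51.8 and 167 per Mb. At the mean density over the span of the chromosomes, 2.26 and 3.87 per Mb, regions of this length would hold 1.35 and 2.32. At the density of narrower shared H3K9Ac peaks, 132 and 245 per Mb, they would hold 79.3 and 146. BRWD1 was therefore 22.9 and 43.2 times as dense in wide peaks as along the chromosomes, and 0.391 and 0.683 times as dense as in narrower acetylated peaks. For H3S10pK14Ac the observed midpoints were 2 and 44 (replicates 1 and 2). The density of the chromosomes gave 0.0237 and 2.47, and that of narrower peaks 9.32 and 86.4. The ratios to narrower peaks were 0.214 and 0.509. Replicate 2 had 73.5 per Mb in wide peaks, against 77.9 at 500 to under 750 bp and 89.4 at 750 to under 1000 bp.

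Counted as regions, 21 and 80 wide peaks had a BRWD1 midpoint. Their lengths at the density of narrower peaks would give 71.3 and 121 if midpoints fell independently of each other. For H3S10pK14Ac the numbers were 2 and 35 against 9.21 and 77.0. Both lists of each antibody lay on the same side, but with 2 lists an exact two-sided sign-flip permutation test cannot go below p = 0.5, which is what each of these 4 comparisons gave. The direction against narrower peaks was not kept under every definition of wide: with a minimum of 1500 bp the BRWD1 ratios were 0.618 and 1.17, and with widths taken from replicate 2 they were 0.790 and 1.20.

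Density varied strongly with width in both classes, being low just above 1000 bp and high in the longest wide peaks and in a class of short peaks. In BRWD1 replicate 2 the share of H3K9Ac peaks with an overlap was 11.2% at 1000 to under 1250 bp, 15.1% at 1250 to under 1500 bp, 33.8% at 1500 to under 2000 bp and 48.9% (35.3 to 62.8) at 2000 bp or more. Per length this was 96.5, 127, 219 and 297 midpoints per Mb, so the rise exceeded the gain in length. The median H3K9Ac replicate 1 score also rose over these bands, from 14.45 to 16.88, 17.4 and 28.85. The part of score in the rise was not tested. Replicate 1 gave 33.6, 47.6, 27.4 and 112.3 per Mb in the same bands, from 8, 6, 3 and 14 midpoints. H3S10pK14Ac replicate 2 gave 29.4, 71.4, 64.0 and 169 per Mb. Of the 14 BRWD1 replicate 1 midpoints in the widest band, 6 lay at Igk and Igh. So did 9 of the 37 of BRWD1 replicate 2 and 8 of the 21 of H3S10pK14Ac replicate 2. Without these 2 regions the widest band held 71.5, 250 and 116 per Mb for these 3 lists in turn. Among short peaks, those of 300 to under 400 bp stood out, with 418 and 528 BRWD1 midpoints per Mb.

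A peak of all 5 larger lists (all except H3S10pK14Ac replicate 1) covered a common stretch in 4 wide peaks (0.952%) and in 141 narrower ones (3.57%), 87 of which measured 300 to under 400 bp. No filter for regions with signal in every library was applied here, and signal of the input libraries in these regions was not tested. Without these regions BRWD1 density was 34.3 per Mb in wide against 60.5 per Mb in narrower peaks for replicate 1, and 153 against 177 per Mb for replicate 2. The ratios were then 0.567 and 0.862, nearer to 1 than with all regions. H3S10pK14Ac replicate 2 gave 58.3 against 74.9 per Mb.

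**Figure D4:**
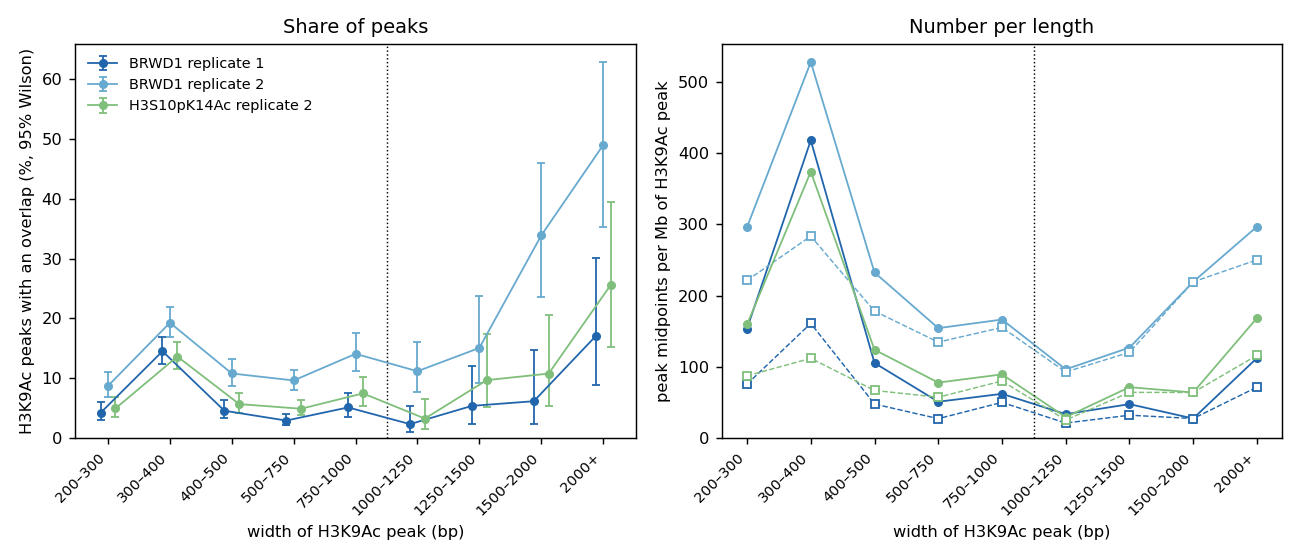
Share (%, with 95% Wilson intervals) of shared H3K9Ac replicate 1 peaks that overlapped a peak of BRWD1 replicate 1, BRWD1 replicate 2 or H3S10pK14Ac replicate 2, by width in bp (left), and midpoints of those peaks per Mb of H3K9Ac peak (right); open squares leave out regions where all 5 larger lists share a stretch, and the dotted line marks 1000 bp. BRWD1 replicate 2 reaches 48.9% at 2000 bp or more, and the maximum per length, 528 per Mb, is at 300 to under 400 bp.

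The BRWD1 peaks inside wide H3K9Ac peaks were mostly weak. Their median score was 5.47 in replicate 1 and 5.70 in replicate 2. BRWD1 peaks at no H3K9Ac replicate 1 peak had the same medians, and those at narrower shared peaks 15.4 and 7.36. The upper parts differed: 40.6% and 39.2% scored 6 or more at wide peaks, against 15.7% and 23.5% at no H3K9Ac replicate 1 peak. Of those at no H3K9Ac replicate 1 peak, 1.92% and 1.59% scored 10 or more. Scores of 10 or more were reached by 7 replicate 1 peaks (21.9%) and 11 BRWD1 replicate 2 peaks (10.8%) at wide peaks, against 67.3% and 37.4% at narrower ones. All 7 of replicate 1 and 6 of the 11 of replicate 2 lay in the 4 regions with a stretch shared by all 5 larger lists. Elsewhere in wide peaks the best BRWD1 scores were 6.91 and 14.4. Such regions also held 126 of the 175 BRWD1 replicate 1 peaks and 133 of the 185 replicate 2 peaks scored 10 or more at narrower H3K9Ac peaks. Without them none of 21 BRWD1 replicate 1 peaks at wide and 43.0% at narrower peaks scored 10 or more, and 5.49% and 14.9% in replicate 2, with medians of 5.38 and 8.31 and of 5.70 and 6.37. H3S10pK14Ac replicate 2 peaks had median scores of 6.26 at wide and 7.51 at narrower peaks, and 6 of the 7 scored 10 or more at wide peaks lay in the same 4 regions. Without such regions its medians were 5.86 and 6.27. These differences between places were not tested.

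**Figure D5:**
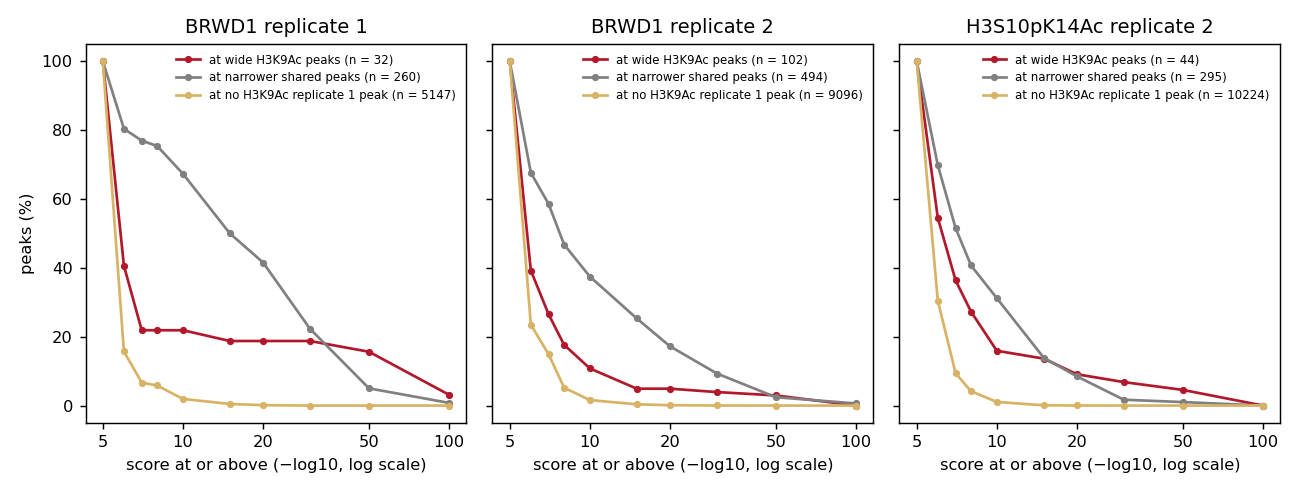
Share (%) of the peaks of a list that score at or above the value on the horizontal axis (−log10, log axis), for peaks at wide H3K9Ac peaks (red), at narrower shared ones (grey) and at no H3K9Ac replicate 1 peak (yellow). At a score of 10, 21.9% and 10.8% of the BRWD1 peaks at wide peaks are left in replicates 1 and 2, against 67.3% and 37.4% at narrower peaks.

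Few wide peaks had BRWD1 in both replicates. A BRWD1 peak of either list lay in 95 (22.6%) and of both lists in 10 (2.38%), against 13.7% and 5.09% of narrower shared peaks. Regions where all 5 larger lists share a stretch hold both BRWD1 lists by definition. Without them the share with both was 1.44% (6 of 416) in wide and 1.58% (60 of 3806) in narrower peaks, and for either list 21.9% and 10.5%. Of all wide peaks with BRWD1 replicate 1, 45.5% also had replicate 2, and of those with replicate 2, 12.0% also had replicate 1; the narrower peaks gave 80.1% and 41.0%. Without those regions the shares were 33.3% and 7.59% for wide and 54.5% and 17.2% for narrower peaks. In 6 of the 10 the BRWD1 peaks of both lists overlapped each other. Beside Igk and Igh, large scores were found only at chr2:98506271-98507584 (1314 bp; BRWD1 52.3 and 92.5) and chr17:39984111-39985274 (1164 bp; BRWD1 93.9 and 94.1). These 2 are short for wide peaks, had a single replicate 2 peak each, and carried H3S10pK14Ac replicate 2 scored 37.9 and 17.8. Like Igk and Igh, both are among the regions where all 5 larger lists share a stretch. Whether the input libraries also had high signal at these 4 was not tested. The remaining 6 lay at chr5:66254015-66257471, chr6:7795315-7798237, chr11:46122639-46125158, chr8:26213607-26216020, chr10:66648391-66650165 and chr2:163468807-163470458, where no BRWD1 peak scored above 8.36 and no H3S10pK14Ac peak was called.

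BRWD1 and H3S10pK14Ac coincided in a smaller share of wide than of narrower peaks, but this rested on the regions where all 5 larger lists share a stretch and which hold both by definition. Of the 35 wide peaks with H3S10pK14Ac replicate 2, 6 had BRWD1 replicate 1 (17.1%) and 12 had replicate 2 (34.3%), whereas 50.3% and 63.4% of the 290 narrower ones did. Without those regions BRWD1 replicate 1 lay in 2 of 31 wide (6.45%) and 5 of 149 narrower peaks with H3S10pK14Ac (3.36%), and replicate 2 in 25.8% and 28.9%. Wide peaks without H3S10pK14Ac replicate 2 had BRWD1 in 4.16% and 18.4%, against 2.87% and 8.37% of narrower ones. Whether the relation differs between the width classes was not tested.

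Within wide peaks, BRWD1 and H3S10pK14Ac lay where replicate 2 also called H3K9Ac. Replicate 2 covered 340 kb of the regions and left 258 kb. Of the BRWD1 midpoints, 25 of 31 in replicate 1 and 93 of 100 in replicate 2 fell in the covered part, a density of 73.5 against 23.2 per Mb and of 273 against 27.1 per Mb. For H3S10pK14Ac replicate 2, 43 of 44 did (126 against 3.87 per Mb). The central 50% of the length held 56.3% of the covered bases, and 51.6%, 64.0% and 52.3% of the midpoints (BRWD1 replicates 1 and 2, H3S10pK14Ac replicate 2). By region, wide peaks covered by at least 50% had BRWD1 replicate 2 in 28.4% and the others in 8.70%, and for BRWD1 replicate 1 it was 7.20% and 2.72%. The better covered regions also scored higher in H3K9Ac replicate 1 (median 19.3 against 13.1) and were slightly wider (median 1312 against 1199 bp), and the part of these in the difference was not tested.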

How the data were processed

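The authors deposited 1 peak list per replicate library, with chromosome, start, end, name and score. The submitters' processing notes list MACS2, Picard, BWA 0.7.5 and Trimmomatic 0.32, with mm9 as the build; the caller settings and the control library were treated as unknown. The deposited score is a −log10 of a p-value or q-value, as read from the list names and from values that start at 5. Peak widths follow from the calling and from depth, which is unknown. The 2 input and 4 ATAC-seq samples were not used here.

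Peaks on chromosomes 1 to 19 and X were used, and positions count from 1. Peaks were shared if they overlapped by 1 bp or more. Expected numbers of midpoints are a density (midpoints per kb of narrower shared peaks, or of the 2574 Mb between the first and last peaks of the chromosomes) times length, without resampling. Expected numbers of regions add up the probability that each region holds at least 1 midpoint, with midpoints taken to fall independently at that density (Poisson). Peaks are not replicates, so ratios were compared over lists by an exact sign-flip test. Regions named are the 10 widest, those in the Igk and Igh windows, the largest groups with gaps of at most 10 kb, those with most replicate 2 or BRWD1 peaks and those with all 6 lists; the tightest pairs and the 10 regions with both BRWD1 lists were added after their values were seen. Windows around loci were set in whole megabases from general knowledge, and 1 of them is not reported here. The regions and lists were chosen with earlier results of these data known. Python 3.11.15, pandas 2.3.3, NumPy 2.4.6 and SciPy 1.17.1 were used, and the counting was tested on simulated data. Alternatives were a width minimum of 1500 bp, a 50% overlap, scores of 10 or more, joined peaks, other distances, widths from replicate 2, and leaving out lists or regions.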

Additional observations from a re-analysis of the deposited data

How the results depend on the processing

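Of 62 recalculations, 43 moved a value by less than the spread between lists, its 95% Wilson interval or 1.5 times for a count. This number does not measure stability. The share of regions with an antibody was judged by the standard deviation of its 2 lists. Leaving out 1 of them cannot move the share further than that. At scores of 10 or more, falls from 12.5 to 2.63% for BRWD1 and from 4.40 to 1.01% for H3S10pK14Ac also lay within this spread. A minimum of 1500 bp left 112 regions, of which 72.3% were split and 7.14% had another within 10 kb; 25.4% had BRWD1, and the ratios per kb to narrower peaks were 0.851 for BRWD1 and 0.780 for H3S10pK14Ac. Scores of 10 or more left 247 regions, 20.2% split, 8.10% with another within 10 kb, and a BRWD1 ratio of 0.168, and lowered the share with BRWD1 to 2.63% and that with H3S10pK14Ac to 1.01%. Joining H3K9Ac peaks at most 200 bp apart gave 621 regions, 24.2% of them split, and a distance of 25 kb gave 15.7% with a neighbour.

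With replicate 1 left out as the list that sets the width, 106 regions were found, 22.6% of them split, 86.7% of their bases covered and 8.49% with another within 10 kb. Over settings that leave out a library, the share with BRWD1 ranged from 5.24 to 25.0%, the share with H3S10pK14Ac from 0.476 to 8.49%, the BRWD1 ratio from 0.391 to 0.973 and the H3S10pK14Ac ratio from 0.214 to 0.841. The cause was not tested. The setting without H3K9Ac replicate 2, that without the 2 widest regions, and the combinations and scores without the regions shared by all 5 larger lists were chosen after seeing the data. No H3S10pK14Ac ratio could be given without the regions shared by all 5 larger lists or without the 2 widest, because replicate 1 then had no peak in wide regions. No paired analysis was possible because the results are overlaps of peak lists and come from no test between numbered samples.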

Other observations

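The 54 H3K9Ac replicate 1 peaks of 1000 bp or more that met no replicate 2 peak were 11.4% of the 474 wide peaks of that list. Their median width was 1153 bp and their median score 10.6, and the widest was chr13:42145164-42146998 (1835 bp). Of these, 15 lay within 1 kb of a replicate 2 peak and 22 lay more than 10 kb from any. BRWD1 replicates 1 and 2 were called in 1 and 2 of the 54, and H3S10pK14Ac replicate 2 in 1. For these lists in turn the shares among all H3K9Ac replicate 1 peaks were 6.31%, 8.36% and 3.94%.

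Of the 106 replicate 2 peaks of 1000 bp or more that met replicate 1, 32 lay on no wide replicate 1 peak, and the widest replicate 1 peak on these had a median width of 785 bp. BRWD1 replicates 1 and 2 were called in 12 and 41 of the 106 (11.3% and 38.7%). Among all H3K9Ac replicate 1 peaks, of median width 375 bp, the shares were 6.31% and 8.36%.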
